A study of Bos taurus with 106 samples.

Results

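The change of liver transcripts over the dry period was followed in Holstein cows that ate freely, by setting liver taken 14 days before calving (day -14) against liver taken 65 days before calving (day -65). The group comprised 4 cows, numbered 6886, 7050, 7161 and 7187, of which 3 had both days and cow 7050 had day -14 alone. These 7 liver samples (14 arrays) were chosen by their labels from 53 liver samples (106 arrays) of 8 cows. Each cow received a moderate-energy diet of 1.60 Mcal/kg throughout a dry period of 65 days. The ad libitum cows reached about 120% of the NRC requirement, and 4 restricted cows, used here for comparison only, were held to about 80%. By these labels, day -65 stands at the start of the dry period and of both feeding levels. The part of intake in differences between the diets on that day was not tested. Every sample was whole liver RNA hybridised on spotted cDNA arrays against a reference pooled from tissues other than liver, once in each dye orientation. All values are log2 ratios of liver over that reference after centring each array on its median, averaged over both orientations, so a value of 0 means a spot as far above or below the reference as the typical spot. In such samples, fewer cells of a type and less RNA per cell cannot be told apart.

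The dry period is the pause between lactations in which the udder is renewed and the fetus grows fastest. The liver of the cow then prepares for the demand for glucose and the flow of fatty acids from adipose tissue that come with milk secretion. It is also the main source of complement, acute phase proteins and other plasma proteins, and hepatic stellate cells make much of its extracellular matrix.

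The samples carried liver transcripts. SLC10A1, through which hepatocytes take up bile acids with sodium, and TF, the plasma iron carrier transferrin, lay between 3.88 and 6.25 and between 4.05 and 5.87 in the 7 samples. Of 68 listed plasma protein genes, 6 were represented on the array.

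Array measures differed between the days. In day -65 samples the correlation across elements between both dye orientations was 0.782 ± 0.026 (SD, n = 3), and in day -14 samples it was 0.466 ± 0.171 (SD, n = 4). It was lowest, at 0.225, in cow 6886 on day -14, against 0.474 to 0.611 in the other cows. With the mean dye offset of each element removed, a setting chosen after seeing the data, the values were 0.822 ± 0.032 (SD, n = 3) and 0.741 ± 0.086 (SD, n = 4). The SD of log2 ratios over elements was 1.05 to 1.09 on day -65 and 0.859 to 0.946 on day -14, so each day -14 sample was less spread than each day -65 sample. In restricted cows the same SD was 0.912 to 1.07 on day -65 and 0.984 to 1.21 on day -14.

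**Figure D1:**
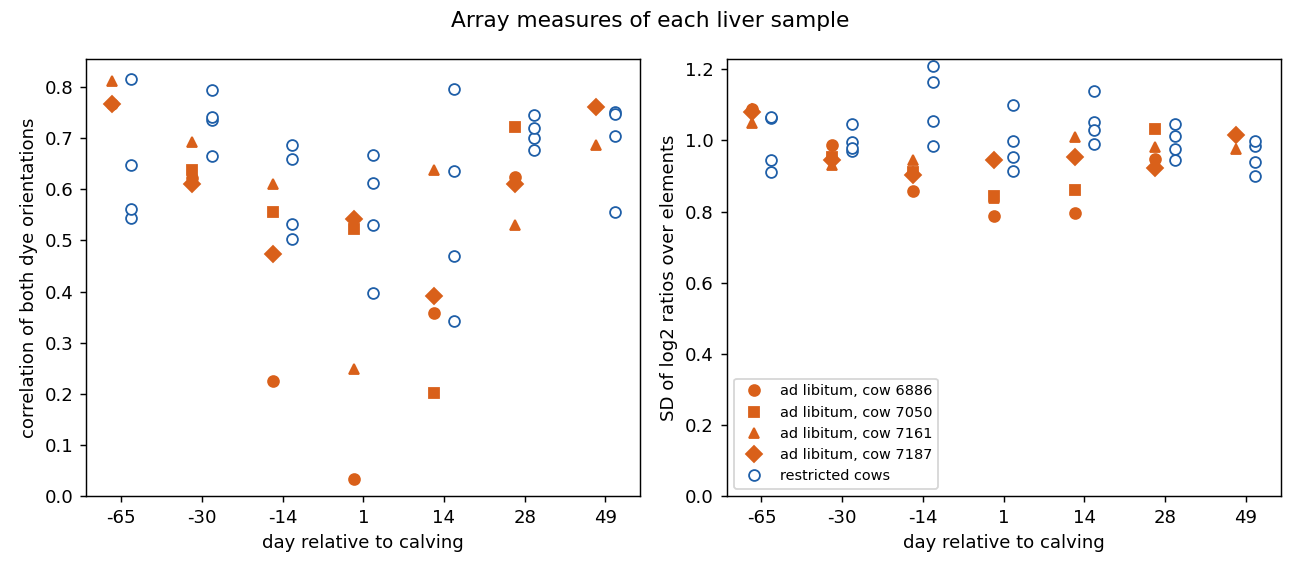
Array measures of each liver sample by day relative to calving: the correlation across elements of both dye orientations (left) and the SD of log2 ratios over elements (right). Points are cows, with filled marks for ad libitum and open circles for restricted cows. Ad libitum samples of day -14 lie below those of day -65 in both panels, and cow 6886 on day -14 is the lowest of that day at 0.225.

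From day -65 to day -14, some matrix, cytoskeletal, ribosomal protein and histone genes rose in ad libitum cows, and some complement and plasma protein genes and the bile acid transporter SLC10A1 fell. Of 8061 elements tested, 552 rose (6.85%) and 327 fell (4.06%) at an adjusted p under 0.05 (limma, Benjamini-Hochberg), against 2014 at an unadjusted p under 0.05. The called elements carried 378 distinct gene symbols among the rises and 216 among the falls. The median size of a called difference was 0.84, and 277 exceeded 1, that is, a doubling or a halving. The median difference of all elements was 0.045. Of the 879 called elements, 865 had the same sign in each dye orientation. The tested value is the mean of both orientations, so this count partly follows from the call. With liver in Cy3 alone 563 of the 879 passed, with liver in Cy5 alone 523, and in each orientation alone 248. Of the 876 called elements with a value in all 7 samples, 864 moved the same way in each of the 3 cows with both days. The samples of both days did not overlap for 817 of these 876, as for 27.8% of all elements with 7 values. The elements were called by a contrast of these same samples. Both counts therefore partly follow from the call and are no separate result.

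Most rises began below the typical spot and most falls above it. Of the rises, 89.3% had a day -65 mean below 0, as had 48.4% of all elements tested, and 89.9% of the falls had a day -65 mean above 0. By the day -30 mean, which does not enter the contrast, the shares were 82.6% of the rises below 0 and 87.5% of the falls above 0, against 47.4% of all elements below 0. The spread of ratios was narrower on day -14, and its part in this pattern was not tested. With arrays scaled to a common spread, 990 elements passed, and 779 of the 879 called elements were among them with the same sign. Without centring, 1790 elements passed, 98.2% of them rises against 62.8% in the main analysis, and the median of all elements lay at 0.64. Without cow 6886, 7161 or 7187 the count was 331, 408 or 279, and with orientation agreement entered as a covariate it was 352.

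Among the 12 largest increases were signalling modulators, matrix genes and a glucose transporter. In what follows, cows are given in the order 6886, 7161 and 7187 on day -65 and 6886, 7050, 7161 and 7187 on day -14. SIPA1L1, which activates the GTPase activity of Rap proteins, read -0.02, -0.85 and -0.70 on day -65 and 2.94, 2.25, 3.02 and 2.52 on day -14. All 4 late samples lay above all 3 early ones, a difference of 3.21 ± 0.39 (SE, adjusted p = 3.48e-07, limma). FSTL3, a secreted inhibitor of activin, read -3.45, -2.75 and -2.64, then -0.68, 0.32, 0.17 and -0.48. It rose by 2.78 ± 0.39 (SE, adjusted p = 4.67e-06, limma), with no overlap between the days. EMP1, an epithelial membrane protein, read -2.73, -2.48 and -2.69, then -0.47, -0.24, -0.09 and -0.10. Its samples were tightly grouped within each day, and it rose by 2.41 ± 0.31 (SE, adjusted p = 1.53e-06, limma).

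CD109, a co-receptor that restrains TGF-beta signalling, rose by 2.27 ± 0.28 (SE, adjusted p = 3.48e-07, limma), from -2.43 ± 0.46 (SD, n = 3) to -0.15 ± 0.56 (SD, n = 4). SLC2A3, the glucose transporter GLUT3, rose by 2.10 ± 0.36 (SE, adjusted p = 7.62e-05, limma), from values of -2.47 to -1.82 to values of -0.34 to 0.41. MAP1B, which binds microtubules, stayed far below the reference on both days and rose by 1.97 ± 0.30 (SE, adjusted p = 1.28e-05, limma). RRP1B, a nucleolar protein of ribosome biogenesis, rose by 1.95 ± 0.30 (SE) on one element and by 0.70 ± 0.20 (SE) on another. A second SLC2A3 element rose by 1.22 ± 0.20 (SE). The other large increases were those of TNC, COL3A1, MMP2, LAMA5 and H2B, described with their groups.

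The 12 largest decreases held genes of innate immunity, of transport and of fat breakdown. CD80, a costimulatory ligand on antigen-presenting cells, read 2.95, 2.02 and 1.84 on day -65 and -0.12, -1.28, -0.26 and -0.47 on day -14. Every late sample lay below every early one, and CD80 fell by 2.80 ± 0.49 (SE, adjusted p = 0.000128, limma). SLC10A1 read 6.18, 5.95 and 6.25, then 4.04, 3.88, 4.34 and 4.26. It fell by 2.00 ± 0.31 (SE, adjusted p = 1.82e-05, limma), and both days were far apart relative to their spread. TRANK1 fell by 1.97 ± 0.25 (SE), and its day -14 values were nearly equal in the 4 cows, at -1.38 to -1.26. A second TRANK1 element fell by 0.85 ± 0.18 (SE). UNC13D, a factor of granule secretion, read 8.24, 7.39 and 7.34, then 5.67, 5.66, 5.80 and 5.67. It fell by 1.96 ± 0.29 (SE, adjusted p = 1.03e-05, limma), again with little spread on day -14.

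PNPLA2, adipose triglyceride lipase, read 2.57, 2.07 and 2.38, then 0.62, 0.27, 0.36 and 0.58. It fell by 1.88 ± 0.28 (SE, adjusted p = 1.03e-05, limma), while a second PNPLA2 element read 0.57 ± 0.57 (SE, adjusted p = 0.56). URAD, an enzyme of urate breakdown, fell by 1.94 ± 0.35 (SE, adjusted p = 0.000211, limma), from 4.45 ± 0.55 (SD, n = 3) to 2.50 ± 0.25 (SD, n = 4). A second URAD element read -0.22 ± 0.25 (SE, adjusted p = 0.607, limma). CA2, carbonic anhydrase II, fell by 1.86 ± 0.33 (SE), but its day -65 values were wide apart, at -0.22, -1.90 and 0.11. ZMAT1, a zinc finger gene, fell by 1.96 ± 0.35 (SE), and LOC616364, an uncharacterised locus, by 2.66 ± 0.35 (SE). Of the 24 leading genes, 23 passed with each of the 4 cows left out in turn. COL3A1 did not pass without cow 6886, 7161 or 7187.

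**Figure D2:**
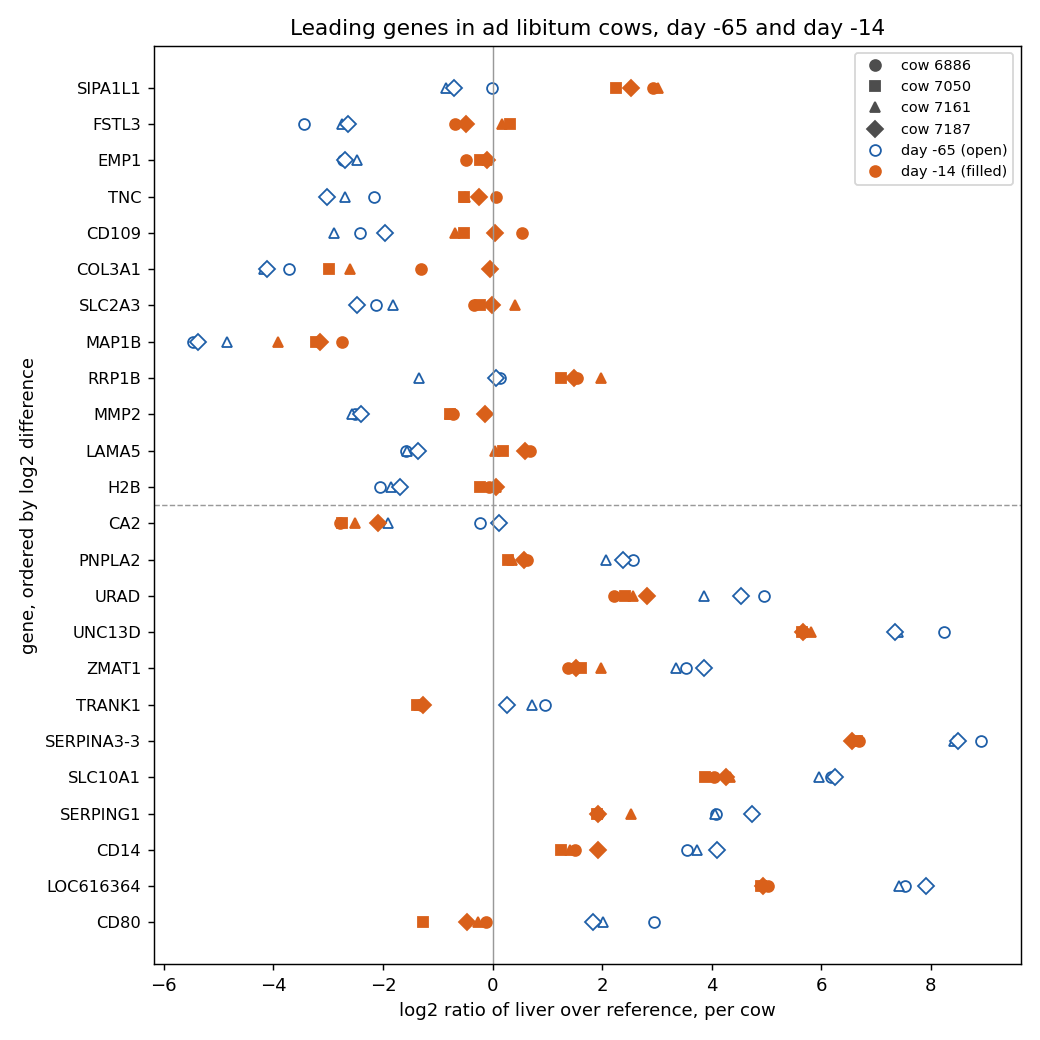
Log2 ratio of liver over reference (x axis) in each ad libitum cow for the 12 largest increases (above the dashed line) and the 12 largest decreases (below it). Open marks are day -65 (n = 3) and filled marks day -14 (n = 4), with a mark shape per cow. In each gene the samples of both days do not overlap, as for 27.8% of all elements with 7 values. The genes were chosen by this same difference, so the gap partly follows from the choice. SIPA1L1 has the largest difference at 3.21.

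Of 29 measured genes of the extracellular matrix, 11 rose and none fell, with a median difference of 0.42 against 0.045 for all elements. Over all 41 elements of these genes, 15 rose and 1 fell. TNC, the matrix protein tenascin C of developing and healing tissue, read -2.16, -2.70 and -3.01 on day -65 and 0.06, -0.52, -0.51 and -0.24 on day -14. It rose by 2.33 ± 0.37 (SE, adjusted p = 2.83e-05, limma), with the late samples well above the early ones. A second TNC element read 0.71 ± 0.30 (SE, adjusted p = 0.125, limma) and did not pass. MMP2, a gelatinase that cuts collagen, read -2.50, -2.57 and -2.40, then -0.72, -0.77, -0.78 and -0.13. It rose by 1.90 ± 0.36 (SE, adjusted p = 0.000375, limma), with cow 7187 highest on day -14. COL6A1, a chain of type VI collagen, rose by 1.67 ± 0.29 (SE), and FBLN1, the matrix protein fibulin 1, by 1.26 ± 0.24 (SE). COL3A1, type III collagen, read -3.72, -4.16 and -4.12, then -1.31, -2.98, -2.60 and -0.05. The late samples spread over more than 2 log2 units, with cow 7187 highest, and the difference of 2.27 ± 0.77 (SE) passed narrowly (adjusted p = 0.0473, limma).

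LAMA5, a laminin chain of basement membranes, rose by 1.88 ± 0.27 (SE, adjusted p = 5.17e-06, limma) on one element, and its other elements read 0.70, 0.84 and 1.15. Without cow 6886, 7161 or 7187, 5, 6 or 5 matrix genes rose, and without the day -14 sample of cow 6886 alone, 7. Of 8 measured stellate cell and fibroblast markers, 2 rose and none fell, namely THY1, a fibroblast surface glycoprotein (0.52 ± 0.13, SE), and TAGLN, the actin-binding transgelin of contractile cells (0.75 ± 0.22, SE). The call of THY1 was lost without cow 6886 or 7187 and that of TAGLN without cow 6886, 7161 or 7187. The mean level of the 8 genes was -1.43 in each day -65 sample and -1.12 to -0.91 on day -14, and its part in the matrix result was not tested. A ratio to a reference has no true 0, so no marker can be called absent.

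Of 21 measured genes of TGF-beta family signalling, 4 rose and none fell, with a median of 0.28. Beside FSTL3 and CD109, ID1, an inhibitor of helix-loop-helix factors, read -1.98, -1.98 and -1.51, then 0.15, -0.19, -0.37 and -0.44. It rose by 1.62 ± 0.32 (SE, adjusted p = 0.000653, limma) with a clear gap between the days. TGFBR1, the type I receptor, rose by 0.73 ± 0.23 (SE), a call lost without cow 6886, 7161 or 7187. Of 28 actin and cytoskeleton genes, 5 rose and 1 fell, with a median of 0.38. MSN, which links actin to the membrane, rose by 1.01 ± 0.17 (SE), and FLNA, the actin cross-linker filamin A, by 1.20 ± 0.22 (SE). LASP1, an actin-binding scaffold, fell by 1.65 ± 0.35 (SE), whereas its second element read 0.46 ± 0.19 (SE, adjusted p = 0.119, limma). Without cow 6886, 7161 or 7187, 3, 3 or 2 cytoskeleton genes rose.

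Of 46 measured ribosomal protein genes, 17 rose and none fell, with a median of 0.54, and 43 lay above 0. RPS25, a protein of the small subunit, read -1.79, -1.58 and -1.97 on day -65 and -0.18, -0.42, 0.00 and 0.04 on day -14. It rose by 1.64 ± 0.27 (SE, adjusted p = 4.85e-05, limma), and the days did not overlap. RPS27 rose by 1.44 ± 0.23 (SE), RPS29 by 1.41 ± 0.22 (SE) and RPL39, of the large subunit, by 1.20 ± 0.22 (SE). The group median was 0.15 with liver in Cy3 alone and 0.81 with liver in Cy5 alone. Without cow 7161 or 7187, 11 or 8 ribosomal protein genes rose. Many ribosomal protein genes have processed pseudogenes and related copies that a cDNA spot may also bind. Of 25 translation factor genes, 1 rose, NACA, a subunit of the nascent polypeptide complex (1.00 ± 0.30, SE), and its call was lost without cow 6886, 7161 or 7187.

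Of 9 measured histone genes, 5 rose and none fell, with a median of 0.75. H2B, a core histone symbol shared by many near-identical genes, read -2.05, -1.85 and -1.70, then -0.07, -0.23, 0.06 and 0.06. It rose by 1.82 ± 0.25 (SE, adjusted p = 3.65e-06, limma), with narrow spread on both days. MACROH2A1, a histone variant, rose by 0.80 ± 0.16 (SE). The linker histones H1-3 and H1-2 rose by 1.31 ± 0.30 and 1.22 ± 0.30 (SE), and both calls were lost without cow 6886 (H1-2 also without cow 7161). Without cow 6886 or 7161, 2 or 3 histone genes rose. Of 19 cell cycle genes, 5 rose and none fell, with a median of 0.19 that lay at -0.13 with Cy3 alone and 0.30 with Cy5 alone. CENPA, the centromere histone, rose by 0.75 ± 0.17 (SE), and CDC20, an activator of the anaphase-promoting complex, by 0.89 ± 0.25 (SE). The former call was lost without cow 7161 or 7187 and the latter without cow 6886 or 7050. Without cow 6886, 7161 or 7187, 1, 2 or 2 cell cycle genes rose.

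**Figure D3:**
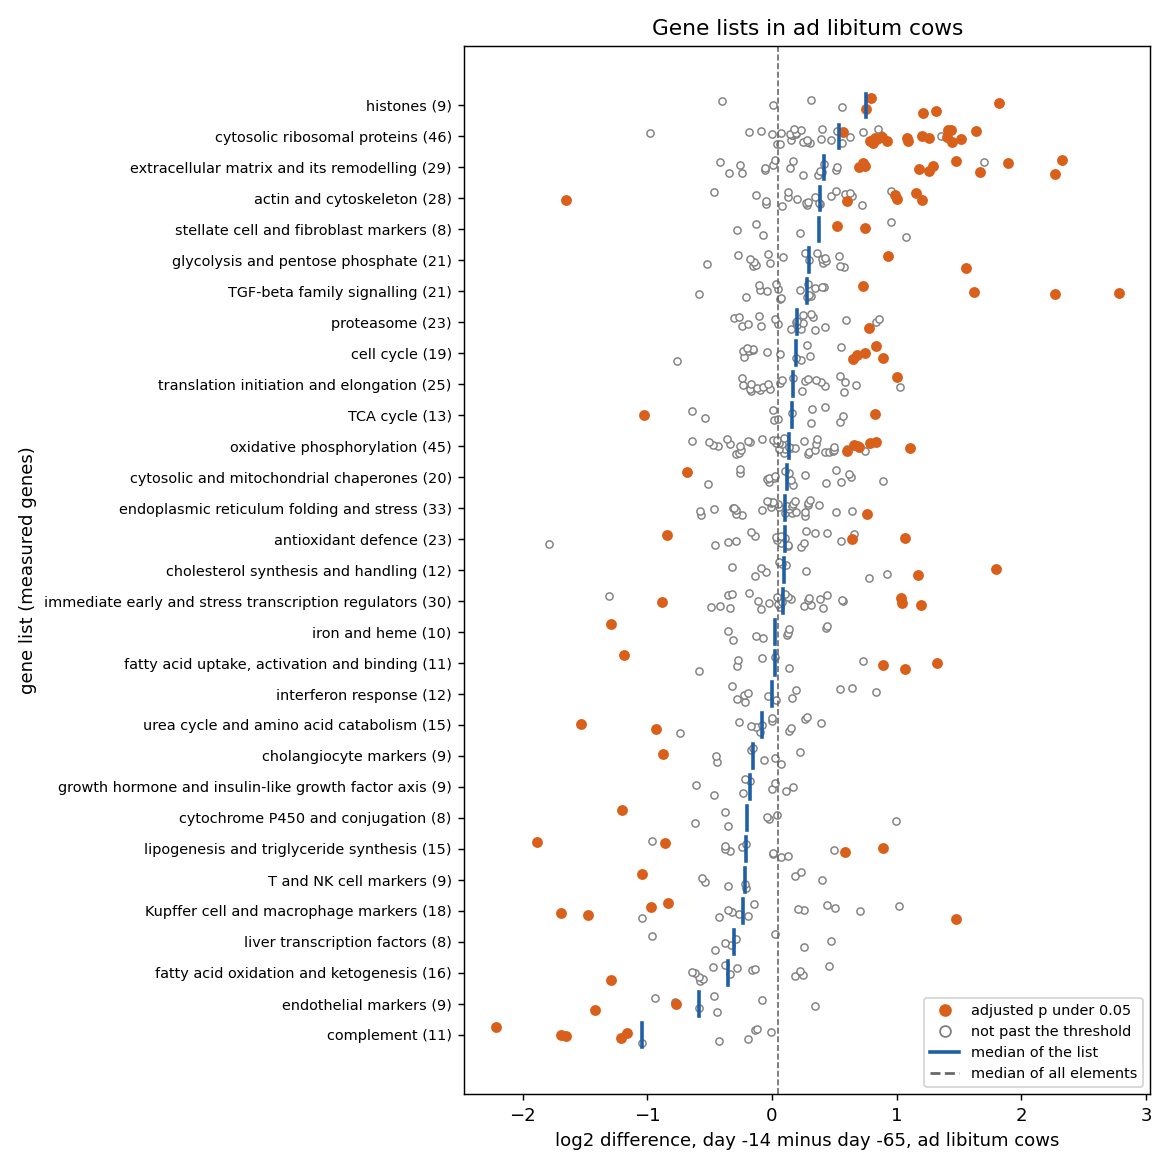
Log2 difference, day -14 minus day -65, in ad libitum cows (x axis) for the members of each gene list with at least 8 measured genes (number in parentheses), ordered by median. Filled points passed (adjusted p under 0.05), open points did not, blue bars are list medians and the dashed line is the median of all elements. Histones and ribosomal proteins have the highest medians at 0.75 and 0.54, and complement the lowest at -1.05.

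Of 11 measured complement genes, 5 fell and none rose, with a median of -1.05. The list held C1QA, C1QB and C1QC, which are also among the Kupffer cell and macrophage markers below. They read -1.05, -0.42 and -0.19, and none passed (adjusted p = 0.056, 0.449 and 0.77, limma). The value of C1QA is the list median. SERPING1, the C1 inhibitor, read 4.09, 4.06 and 4.74 on day -65 and 1.93, 1.91, 2.53 and 1.93 on day -14. It fell by 2.22 ± 0.32 (SE, adjusted p = 8.38e-06, limma), with cow 7161 highest on day -14. C2, the protease of the classical convertase, read 5.67, 5.10 and 5.57, then 3.41, 3.50, 3.96 and 4.13. It fell by 1.69 ± 0.27 (SE, adjusted p = 3.54e-05, limma), with no overlap. C1S and C1R, the proteases of the C1 complex, fell by 1.65 ± 0.33 and 1.21 ± 0.25 (SE), and C4A, the fourth component, by 1.17 ± 0.27 (SE). The call of C4A was lost without cow 6886. Between 4 and 6 of the 11 fell with any 1 cow left out. Without centring, 3 fell and the median was -0.47.

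Of 5 acute phase genes, 3 fell and none rose, with a median of -1.45. CP, a plasma protein of this list, read 0.12 ± 0.39 (SE, adjusted p = 0.861, limma) and did not pass. STAT3, a transcription factor in it, read -0.36 ± 0.25 (SE, adjusted p = 0.383, limma). CD14 was also counted among the macrophage markers. SERPINA3-3, a secreted protease inhibitor, read 8.92, 8.42 and 8.50, then 6.68, 6.66, 6.63 and 6.55. It fell by 1.99 ± 0.35 (SE, adjusted p = 0.000146, limma), and the 4 late values were nearly equal. IL1RN, the interleukin-1 receptor antagonist, fell by 1.45 ± 0.33 (SE). CD14, the co-receptor for bacterial lipopolysaccharide, fell on both of its elements, by 2.26 ± 0.33 and 1.47 ± 0.30 (SE). On the first it read 3.54, 3.73 and 4.09, then 1.50, 1.24, 1.41 and 1.93, with the days well apart.

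Of 6 hepatocyte plasma protein genes, 3 fell and none rose, with a median of -0.83. TF fell by 1.29 ± 0.24 (SE), RBP4, the retinol carrier, by 0.85 ± 0.24 (SE), and APOA1, the main protein of high-density lipoprotein, by 1.15 ± 0.37 (SE). Without cow 6886, 7161 or 7187, 1 of the 6 fell, and the calls of RBP4 and APOA1 were lost in each case. Without centring, none of the 6 fell. Of 4 bile acid genes, 2 fell and 1 rose. Beside SLC10A1 these were SLCO2B1, an uptake transporter for organic anions (-1.86), and ABCC3, an exporter of conjugated bile acids (0.92), which were named after their values were seen.

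Genes of fat metabolism moved in both directions. Of 16 genes of fatty acid oxidation and ketogenesis, 1 fell, with a list median of -0.35 that lay at 0.24 without centring. This was ACADS, short-chain acyl-CoA dehydrogenase, which read 3.79, 3.66 and 4.22, then 2.02, 2.36, 2.93 and 3.08. It fell by 1.29 ± 0.31 (SE, adjusted p = 0.00477, limma), with cows 6886 and 7050 lowest, and the call was lost without cow 6886. ACADVL, which opens the oxidation of very-long-chain fatty acids, read -0.55 ± 0.22 (SE) and did not pass. Of 11 genes of fatty acid uptake and activation, 3 rose and 1 fell, with a median of 0.02. ACSL5, which activates long-chain fatty acids, rose by 1.06 ± 0.31 (SE), DBI, the acyl-CoA binding protein, by 1.33 ± 0.41 (SE) and CAV1, caveolin 1, by 0.89 ± 0.26 (SE). SLC27A2, which takes up and activates very-long-chain fatty acids, fell by 1.19 ± 0.39 (SE). A second ACSL5 element read 0.26 ± 0.35 (SE, adjusted p = 0.664, limma). Each of the 4 calls was lost without cow 7161 or 7187, that of SLC27A2 also without either other cow, that of ACSL5 also without cow 6886 and that of DBI also without cow 7050.

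Of 15 genes of fat synthesis and storage, 2 rose and 2 fell. ELOVL1, a fatty acid elongase, rose by 0.59 ± 0.12 (SE, adjusted p = 0.00116, limma), from -1.33, -1.22 and -1.09 to -0.73, -0.65, -0.56 and -0.57. The change was small but the days did not overlap. ME1, cytosolic malic enzyme, rose by 0.89 ± 0.28 (SE), and PLIN3, a lipid droplet coat protein, fell by 0.85 ± 0.29 (SE). Both of these calls were lost with any 1 cow left out. Of 12 cholesterol genes, 2 rose. MSMO1, a sterol oxidase, read 2.10, -0.25 and 1.21, then 1.99, 2.79, 3.58 and 2.89, so that the days overlapped in cow 6886. It rose by 1.79 ± 0.51 (SE), and FDPS, which makes farnesyl diphosphate, rose by 1.17 ± 0.39 (SE). Both calls were lost without cow 7161 or 7187, and that of FDPS also without cow 7050. ABCA1, the cholesterol exporter, read 0.78 ± 0.48 (SE, adjusted p = 0.324, limma), whereas 2 of its other elements fell, by 1.12 ± 0.25 and 1.19 ± 0.38 (SE).

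The array measured 4 of 23 genes followed for their place in energy metabolism, and none passed. PC, pyruvate carboxylase, read 0.46, 0.32 and 0.06, then 0.44, -0.10, -0.07 and -0.21, a difference of -0.26 ± 0.21 (SE, adjusted p = 0.439, limma). The days overlapped. ACSL1, which also activates long-chain fatty acids, read -0.59 ± 0.37 (SE, adjusted p = 0.33, limma). SREBF1, a regulator of lipogenesis, read -0.96 ± 0.57 (SE, adjusted p = 0.294, limma), with 0.11 in Cy3 alone and -2.03 in Cy5 alone. CPT1A, the carnitine transferase that admits fatty acids to mitochondria, read 0.25 ± 0.30 (SE, adjusted p = 0.62, limma) on the element with more values, whereas its second element fell by 0.77 ± 0.24 (SE, adjusted p = 0.0325, limma).

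In carbohydrate and amino acid metabolism some genes passed, beside 6.85% of all elements that rose and 4.06% that fell. Of 21 glycolysis genes, 2 rose, with a median of 0.30. PKM, the pyruvate kinase of non-hepatocyte tissues, rose by 0.93 ± 0.23 (SE), and ALDOA, a fructose-bisphosphate aldolase of muscle and other tissues, by 1.55 ± 0.39 (SE). Both calls were lost without cow 6886 or 7187. MDH2, mitochondrial malate dehydrogenase, fell by 1.03 ± 0.24 (SE), a call lost in the same 2 cases, and its second element read 0.05. ME2, mitochondrial malic enzyme, read -1.39, -1.48 and -1.49, then -0.71, -0.57, -0.47 and -0.76, and rose by 0.82 ± 0.16 (SE, adjusted p = 0.000406, limma). Among 15 genes of the urea cycle and amino acid breakdown, GSTZ1, of tyrosine breakdown, fell by 1.53 ± 0.33 (SE), and ASS1, argininosuccinate synthase, by 0.93 ± 0.24 (SE). The first call was lost without cow 7187 and the second without cow 6886.

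Of 45 genes of oxidative phosphorylation, 6 rose and none fell, and over all 50 elements of these genes 6 rose and 1 fell. NDUFA12, a complex I subunit, rose by 1.10 ± 0.20 (SE, adjusted p = 0.000184, limma), from -1.34, -1.15 and -1.49 to -0.64, -0.27, -0.04 and 0.07. The list median of 0.14 lay at -0.07 with Cy3 alone and 0.45 with Cy5 alone, and with 1 cow left out 1 to 3 members rose. Of 23 antioxidant genes, 2 rose and 1 fell, shares close to the 6.85% and 4.06% of all elements. PRDX2, a peroxiredoxin, read -2.51, -2.11 and -2.21, then -1.21, -1.17, -1.28 and -1.19, and rose by 1.07 ± 0.17 (SE, adjusted p = 2.85e-05, limma). The 4 late values were nearly equal. Of 30 immediate early and stress regulators, 3 rose and 1 fell, beside the same shares of all elements. Among the rises were KLF4, a zinc finger factor (1.04 ± 0.19, SE), and FOSL2, an AP-1 subunit (1.05 ± 0.21, SE). Other FOSL2 elements read -0.06 and 0.50. None of 12 interferon genes and none of 8 liver transcription factors passed, whereas 3 and 2 of these, respectively, passed in restricted cows. The difference between the diets passed for none of these 12 and 8 genes (limma), against 105 of all elements. A second element of RXRB, a nuclear receptor partner, fell by 0.71 ± 0.17 (SE, adjusted p = 0.00406, limma). Of 33 genes of endoplasmic reticulum folding and stress, 1 rose, DDIT3, a stress-induced transcription factor (0.76 ± 0.21, SE), and that call was lost without cow 6886, 7161 or 7187.

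Markers of other liver cells were measured beside these genes. Of 9 endothelial markers, 2 fell, CDH5, the endothelial cadherin, by 1.42 ± 0.35 (SE) and KDR, a receptor for vascular endothelial growth factor, by 0.77 ± 0.23 (SE). A second KDR element fell by 1.36 ± 0.35 (SE). The call of CDH5 was lost without cow 7187 and that of KDR without cow 6886, 7050 or 7187. The mean level of the 9 genes was 1.70 to 1.80 on day -65 and 0.90 to 1.40 on day -14. Without centring none of the 9 fell and their median was -0.01. Of 18 Kupffer cell and macrophage markers, 4 fell and 1 rose, with a median of -0.23. Without centring 1 of the 18 fell and 2 rose, with a median of 0.34. CD5L, a protein secreted by macrophages, read 6.47, 6.81 and 6.47, then 4.43, 4.09, 5.72 and 5.32. It fell by 1.69 ± 0.37 (SE, adjusted p = 0.002, limma), with cows 6886 and 7050 lowest. AIF1, an actin-binding protein of macrophages, rose by 1.48 ± 0.29 (SE). The mean level of the 18 markers was 1.99 to 2.46 on day -65 and 1.72 to 2.43 on day -14, so it overlapped, and without cow 6886 or 7050 2 of them fell.

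Of 9 T and NK cell markers, 1 fell, PRF1, the pore-forming perforin (1.04 ± 0.28 lower, SE), a call lost without cow 6886 or 7187, and a second PRF1 element read -0.60 ± 0.30 (SE, adjusted p = 0.207, limma). The mean level of the 9 markers was 0.64 to 0.85 on day -65 and 0.47 to 0.62 on day -14. Of 9 cholangiocyte markers, 1 fell, KRT19, a keratin of bile ducts (0.87 ± 0.29 lower, SE), a call lost with any 1 cow left out. Their mean level was -0.17 to -0.11 on day -65 and -0.39 to -0.28 on day -14. The part of these markers in the falls of CD14, CD80 and the complement genes was not tested. CD14, C1QA, C1QB and C1QC were themselves counted among the macrophage markers.

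The interval could be split at day -30, which shares its flanking samples with the whole interval. From day -65 to day -30 a single element passed (0.0124%), with 505 at an unadjusted p under 0.05 (limma). It was that of C2, which fell by 2.05 ± 0.27 (SE, adjusted p = 1.79e-05, limma) to 3.39 ± 0.10 (SD, n = 4) and then changed by 0.36 ± 0.25 (SE, adjusted p = 0.489, limma). From day -30 to day -14, 241 elements rose (2.99%) and 161 fell (2%). The count of 402 was 155, 159, 208 or 123 without cow 6886, 7050, 7161 or 7187.

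TNC read -2.62, -2.83, -1.79 and -3.08 on day -30, like its day -65 values. It changed by 0.05 ± 0.37 (SE) in the first step and rose by 2.28 ± 0.34 (SE, adjusted p = 2.66e-05, limma) in the second. H2B changed by -0.25 ± 0.25 (SE) and then rose by 2.07 ± 0.23 (SE, adjusted p = 7.23e-08, limma). EMP1 changed by 0.20 ± 0.31 (SE) and then rose by 2.21 ± 0.29 (SE, adjusted p = 2.19e-06, limma). SLC10A1 and TRANK1 read -0.48 ± 0.31 and -0.20 ± 0.25 (SE) in the first step and fell by 1.52 ± 0.28 and 1.77 ± 0.23 (SE) in the second. RPS27 took its rise in parts, with 0.46 ± 0.23 (SE, adjusted p = 0.815, limma) and then 0.98 ± 0.21 (SE, adjusted p = 0.00358, limma). URAD read -1.60 ± 0.35 (SE, adjusted p = 0.0938, limma) in the first step and -0.35 ± 0.33 (SE, adjusted p = 0.621, limma) in the second.

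**Figure D4:**
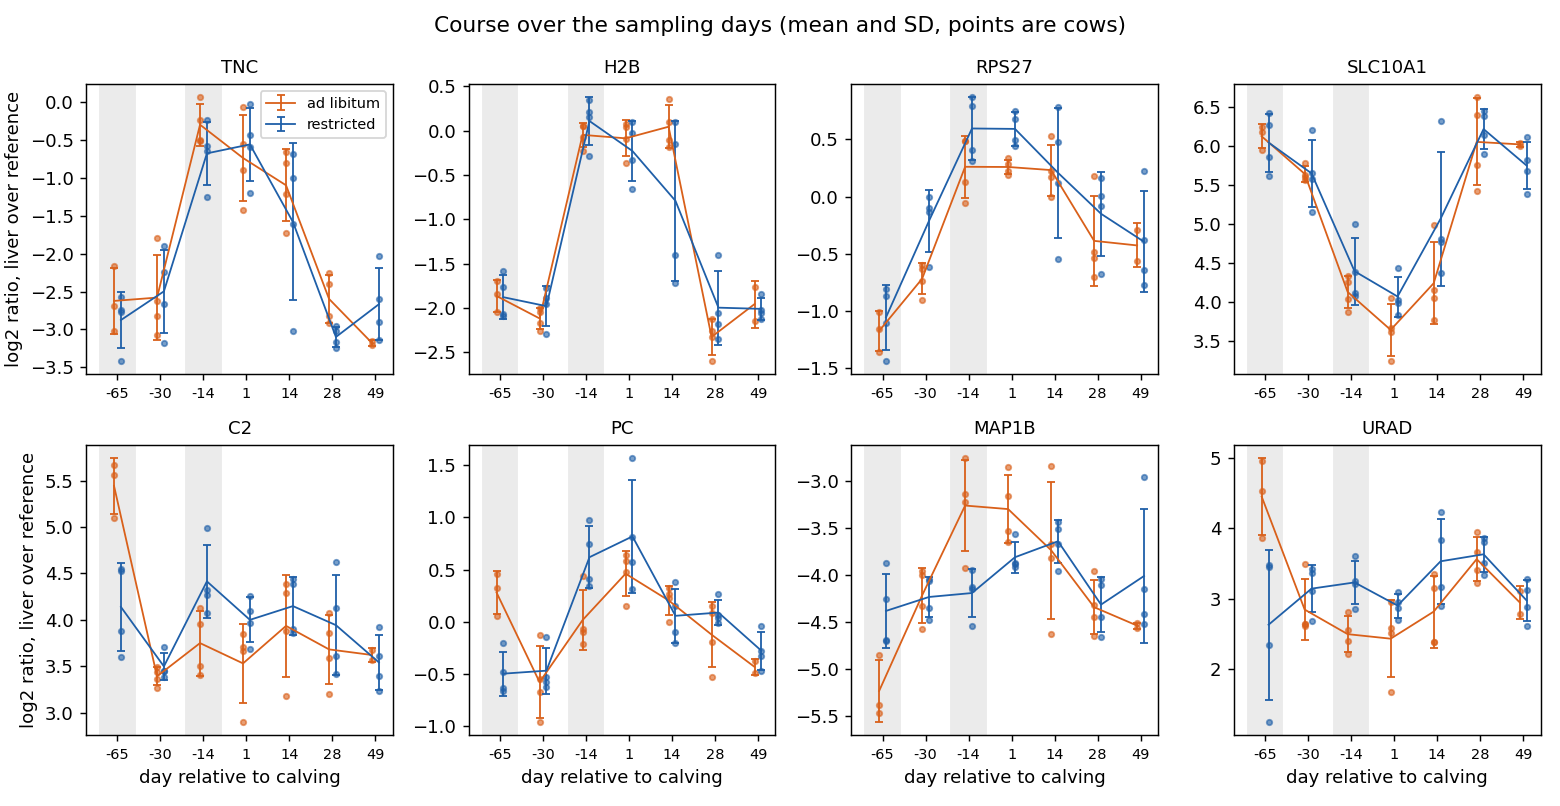
Log2 ratio of liver over reference (y axis) by day relative to calving for 8 genes in ad libitum (orange) and restricted (blue) cows. Lines are group means, bars SD and points cows, and grey bands mark days -65 and -14. TNC and H2B of ad libitum cows lie near their day -65 level on day -30 and higher on day -14, whereas C2 is already low on day -30.

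The restricted cows allowed the same interval to be compared at the lower intake. In them 1330 elements rose (16.5%) and 962 fell (11.9%). Among list genes, 39 of 46 ribosomal protein genes, 10 of 29 matrix genes and 5 of 9 histone genes rose there. TNC read 2.20 and H2B 1.99 in restricted cows, beside 2.33 and 1.82 in ad libitum cows, and the difference between the diets did not pass for either (adjusted p = 0.901 and 0.808, limma). SLC10A1 read -1.65 in restricted cows (adjusted p of the difference = 0.663, limma).

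The difference between the diets in the change passed for 105 elements, with 1449 at an unadjusted p under 0.05 (limma). The ad libitum change was higher for 15 (0.186%) and lower for 90 (1.12%). Of the 90, 72 rose in restricted cows and 21 fell in ad libitum cows. In each of the 90, the ad libitum mean was higher than the restricted mean on day -65 and lower on day -14. The 90 were chosen by a contrast of these same means, so this pattern partly follows from the choice and is no separate result. The count rested on few samples and on the processing. It was 0 without cow 6886 (1118 at an unadjusted p under 0.05, limma), 1 without cow 7050, 76 without cow 7161 and 43 without cow 7187. It was also 0 without centring, with arrays scaled to a common spread and with liver in Cy3 alone (356, 1029 and 868 at an unadjusted p under 0.05, limma), and 295 with liver in Cy5 alone.

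URAD had the largest difference between diets, -2.54 ± 0.48 (SE, adjusted p = 0.0106, limma). URAD and C2 were among 13 of the 105 elements whose gap between the diets was larger on day -65 than on day -14. In restricted cows URAD was 2.63 ± 1.06 on day -65 and 3.23 ± 0.31 on day -14 (SD, n = 4), a difference that did not pass (adjusted p = 0.17, limma). The second URAD element read 0.03 for the difference between diets (adjusted p = 0.969, limma). C2 differed by -1.97 ± 0.37 (SE) and C4A by -1.80 ± 0.37 (SE, adjusted p = 0.0106 for each, limma). Restricted cows read 4.55, 4.53, 3.88 and 3.60 for C2 on day -65 and 4.27, 4.32, 4.99 and 4.08 on day -14, so that the days overlapped. Over the 11 complement genes the median change was 0.24 in restricted cows, where 1 rose and none fell. CD14 differed by -1.89 ± 0.45 (SE) on one element, while the other read -1.20 (adjusted p = 0.104, limma). FOLR1, a folate receptor, and EFNA1, a membrane-bound ligand of Eph receptors, differed by -1.87 ± 0.43 and -1.72 ± 0.38 (SE).

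PC differed by -1.38 ± 0.28 (SE, adjusted p = 0.0106, limma). Restricted cows read -0.66, -0.48, -0.64 and -0.20 on day -65 and 0.74, 0.98, 0.35 and 0.41 on day -14, a rise of 1.11 ± 0.19 (SE) with no overlap. The ad libitum difference did not pass, and their day -65 mean of 0.28 ± 0.20 (SD, n = 3) was above the restricted mean of -0.50 ± 0.21 (SD, n = 4). ACADVL differed by -1.13 ± 0.30 (SE) and IGFBP4, a binding protein of insulin-like growth factors, by -1.40 ± 0.31 (SE). Other IGFBP4 elements read -1.16 and -0.45 for this difference (adjusted p = 0.0249 and 0.328, limma). Of 33 endoplasmic reticulum genes, 13 rose in restricted cows, with a median of 0.38 beside 0.11 in ad libitum cows, and the difference passed for 2 of the 33.

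In the opposite direction, MAP1B differed by 1.78 ± 0.40 (SE, adjusted p = 0.0158, limma), with restricted values of -4.38 ± 0.40 and -4.19 ± 0.25 (SD, n = 4). DCTN6, a dynactin subunit, differed by 1.47 ± 0.36 (SE) and TFAP2A, a transcription factor, by 1.33 ± 0.33 (SE), although the second TFAP2A element read -1.51 (adjusted p = 0.534, limma). PCLAF, a partner of the replication clamp, differed by 1.29 ± 0.33 (SE), OAT, ornithine aminotransferase, by 1.16 ± 0.25 (SE) and BOD1L1, which protects replication forks, by 1.14 ± 0.27 (SE). OAT and PCLAF fell in restricted cows by 0.89 ± 0.17 and 0.91 ± 0.23 (SE), while the ad libitum differences of 0.27 and 0.38 did not pass. Of the 12 genes named for a difference between the diets by size, none passed without cow 6886, without cow 7050, without centring, with scaled arrays or with Cy3 alone, and 11 passed with Cy5 alone.

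**Figure D5:**
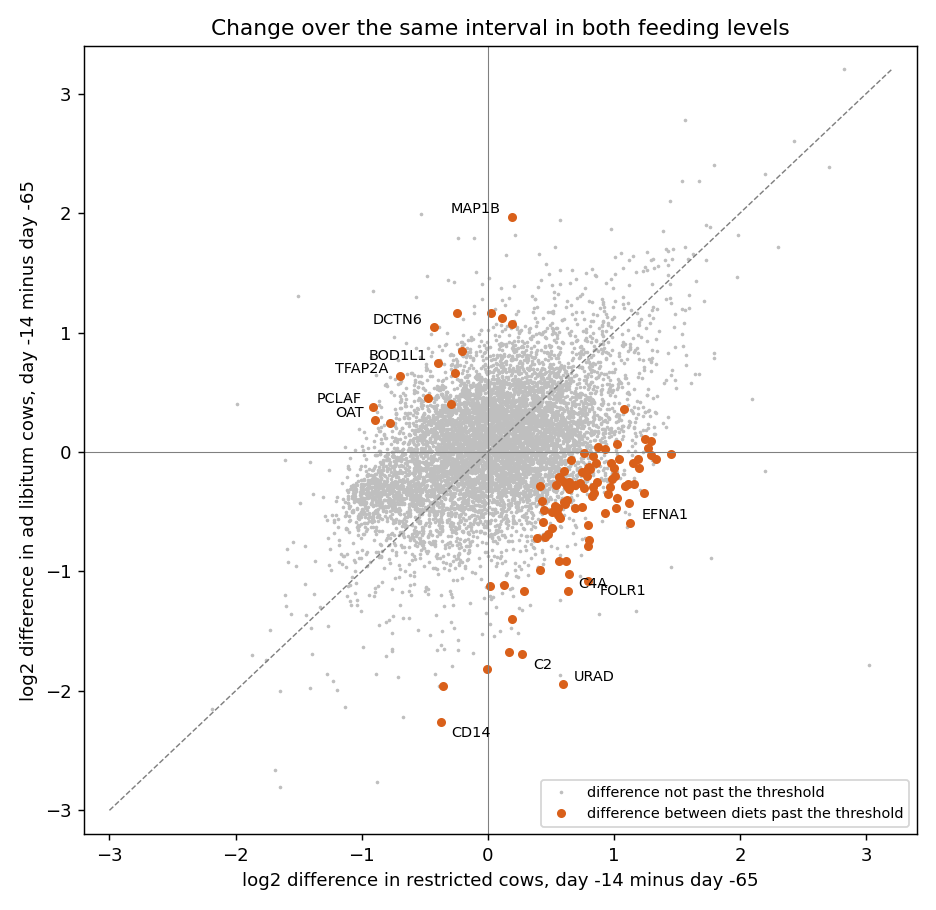
Log2 difference, day -14 minus day -65, in ad libitum cows (y axis) against restricted cows (x axis) for all elements tested. Filled points passed the test of the difference between the diets (105 elements) and 12 genes are named. Most filled points (90) lie below the dashed line of equal change, where restricted cows were mostly above 0 and ad libitum cows below 0.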

How the data were processed

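Liver RNA was measured on 2-colour cDNA arrays read with a Scanarray 4000 and GenePix 4.0, per the labels. The authors deposited a log2 ratio of Cy5 over Cy3 per spot, and how the ratios were background-corrected and normalized is not given in the sources used here. Its table held 8208 elements of 2 spots each, against 7872 in the series' design text. Spots of an element were averaged, arrays with liver in Cy3 were turned in sign, array medians were subtracted, and the dye pair of a sample was averaged and counted as 1 sample. The dye was taken from the titles. On 4 arrays another label names the same dye for both channels, 1 of them a day -65 array of a restricted cow and none among the 14 of the ad libitum contrast. On the 14 arrays, medians as deposited ran from -0.96 to 1.79, missing spots from 119 to 451 and correlations between paired spots from 0.687 to 0.928. As deposited, the median correlation was -0.540 between arrays of opposite orientation and 0.773 between arrays of one orientation. Spot intensities were not used here.

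Testing required a value in 2 or more cows of each of 14 diet-by-day groups. All 53 samples were fitted with limma 3.58.1 (statmod 1.5.0, R 4.3.3) with cow as a random block. The labels pair samples by cow, and the correlation within cows was 0.0176. All tests were two-sided. P-values were adjusted by Benjamini-Hochberg over 8061 elements, with a threshold of 0.05. P-values rest on the spread between samples within the 14 groups, pooled over all 53 samples. They assume the same spread in each group. A single symbol was available for 5598 elements, updated through a RefSeq table of ARS-UCD2.0 that held 5591 of them; 95 had several and 2515 none listed. Symbols rest on an old annotation, and a cDNA may also bind transcripts of related genes.

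Comparison, gene lists and naming rule were chosen with earlier results of these data known. Named were the 12 largest increases and decreases (called, 7 values, same direction in 3 cows), up to 4 genes with the smallest p in each of 35 lists with 5 or more measured genes, the metabolic genes followed throughout, and up to 6 differences between the diets in each direction. In a list, a gene stood for its element with most values, then the highest mean. Each list count of the ad libitum change stands beside 6.85% of all elements that rose and 4.06% that fell.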

Additional observations from a re-analysis of the deposited data

Results flagged for a closer look

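Single samples lay far from the other 3 of their group on day -14 for 8 genes, of 159 groups of 4 samples examined. Chance alone sets apart about 1 in 20 such groups. Cow 7161 was high for SERPING1 (2.53, others 1.91 to 1.93), AIF1 (2.88, others 2.21 to 2.31) and UNC13D (5.80, others 5.66 to 5.67), and low for KRT19 (-0.291, others 0.048 to 0.091). It was also high for CTSS, a lysosomal protease (1.93, others 1.25 to 1.33), and CCT8, a chaperonin subunit (-0.284, others -0.836 to -0.763), which did not pass between the days. Cow 7187 was high for MMP2 (-0.132, others -0.776 to -0.716) and low for PLIN3 (-0.386, others 0.16 to 0.233).

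The change from day -65 to day -14 differed between the diets for 105 elements (limma, interaction). Among genes named in the report the ad libitum change was lower for URAD (-2.54), C2 (-1.97), CD14 (-1.89), FOLR1 (-1.87), C4A (-1.80), EFNA1 (-1.72), UNC13D (-1.60), IGFBP4 (-1.40), PC (-1.38) and ACADVL (-1.13). It was higher for MAP1B (1.78), DCTN6 (1.47), TFAP2A (1.33), PCLAF (1.29), OAT (1.16), BOD1L1 (1.14) and PRDX2 (0.87).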

How the results depend on the processing

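For day -14 against day -65, 879 elements passed, and 279 to 738 with 1 cow left out. The count was 1790 without centring, 1412 with ad libitum samples alone, 352 with orientation agreement as a covariate and 183 without samples of low agreement, which leaves only cow 7161 on day -14, assumed to vary like the other groups. With cow as a fixed replicate block it was 837 and with no replicate block 848. With liver in Cy3 alone it was 1198 and with liver in Cy5 alone 983. The difference between the diets passed for 105 elements, and for 0 to 76 with 1 cow left out. It passed for 0 without centring, with scaled arrays or with Cy3 alone, 295 with Cy5 alone, 7 with the covariate, 2 without samples of low agreement, 16 with a fixed replicate block without cow 7050 and 38 without the day -14 sample of cow 6886, a setting chosen after seeing the data. From day -65 to day -30, 1 element passed, and 1 to 3 with 1 cow left out (3 without cow 6886, 2 without cow 7161). It was 0 with scaled arrays (399 at an unadjusted p under 0.05, limma), 2 with trimmed centring, Cy3 alone or elements measured on every array, 14 with Cy5 alone and 4 with the fixed replicate block. From day -30 to day -14, 402 passed, and 123 to 208 with 1 cow left out. It was 60 without centring, 968 with scaled arrays, 1147 with Cy3 alone, 735 with ad libitum samples alone, 153 without samples of low agreement, 296 without the day -14 sample of cow 6886 and 174 with a fixed replicate block without cow 7050. Of 1918 values of 96 called genes under these settings, 1538 passed in the same direction and 380 no longer passed, and none turned in sign. Among 4 uncalled genes, SREBF1 turned to 0.107 with Cy3 alone, and PC to 0.331 and ACSL1 to 0.00566 without centring. The cause of these shifts was not tested. The number of arrays limits the precision, and only 3 cows had both days.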
